A study of Homo sapiens with 4 samples.

Results

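Chromosome arm 1p, the short arm of chromosome 1, was examined in SH-SY5Y cells, a neuroblastoma cell line, for peaks of H4K5la, the histone H4 mark in which lysine 5 carries a lactyl group. Members were all peaks on chromosome 1 whose centre lay on the telomere side of the centromere in build hg38. They numbered 99 in the wild-type (WT) peak list and 138 in the list of cells with a knockout of DNAJC12 (DNAJC12KO), which makes 237 of 4698 deposited peaks. Both genotypes share the SH-SY5Y background and the same antibody. The genotype label is the only difference the labels give between the groups, and how the knockout was made, or from how many clones, is not given in the sources used here. Per genotype there were 1 library after immunoprecipitation and 1 of input DNA, hence 4 libraries. The peak lists carry no read counts, so depth is unknown. With 1 library per group, no difference between the genotypes has a replicate check, no test was made, and every interval is an exact binomial (Clopper-Pearson) 95% interval that covers counting error only.

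Histone lactylation adds a lactyl group, derived from lactate, to lysines of histone tails, and marks in this class have been studied mainly as companions of active chromatin. The outer end of the arm, band 1p36, is gene-rich and is often lost in neuroblastoma, but its copy number here was not examined. It holds several genes studied as tumour suppressor candidates there, among them CHD5, a chromatin remodeller, CAMTA1, a calmodulin-binding transcription activator, and CASZ1, a zinc finger factor of sympathetic differentiation. DNAJC12, which does not lie on chromosome 1, codes for a J-domain protein that assists enzymes hydroxylating phenylalanine, tyrosine and tryptophan.

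Few peaks on the arm reached a promoter. Promoter windows here are the RefSeq sequences (GRCh38.p14) from 250 bases before to 50 bases after a gene's start. A gene can have more than 1 start, each with its window. Starts were known for 914 of the 1075 protein-coding genes of the arm, so a peak at the promoter of any other was not counted. How many peaks would touch a window by position alone was not tested. Of 1909 such windows on 1p, 2 of the 99 WT peaks and 3 of the 138 DNAJC12KO peaks touched at least 1. TTLL10, a gene of the tubulin tyrosine ligase-like family, was the only protein-coding gene among them, and its window shares most of its bases with that of the antisense gene TTLL10-AS1. This window belongs to an inner start of TTLL10. The centre of the peak lay 5.74 kb from the start of the record, which is the start used for TTLL10 in the distances below. The remaining windows belonged to uncharacterised LOC genes. Sequences are given for the TTLL10 window and for both windows touched by a WT peak, 5′ to 3′ on the gene's strand, with the bases under the peak in capitals.
TTLL10, chr1:1179431-1179730, plus strand, DNAJC12KO peak: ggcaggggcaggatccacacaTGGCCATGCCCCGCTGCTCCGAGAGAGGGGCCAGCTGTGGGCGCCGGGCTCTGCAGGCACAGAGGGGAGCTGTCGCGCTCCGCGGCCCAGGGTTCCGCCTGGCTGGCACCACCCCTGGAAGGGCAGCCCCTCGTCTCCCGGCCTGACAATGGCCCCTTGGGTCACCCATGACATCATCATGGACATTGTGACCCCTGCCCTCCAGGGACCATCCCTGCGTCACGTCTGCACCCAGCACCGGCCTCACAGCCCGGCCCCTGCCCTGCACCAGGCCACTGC
LOC124903820, chr1:1128434-1128733, plus strand, WT peak: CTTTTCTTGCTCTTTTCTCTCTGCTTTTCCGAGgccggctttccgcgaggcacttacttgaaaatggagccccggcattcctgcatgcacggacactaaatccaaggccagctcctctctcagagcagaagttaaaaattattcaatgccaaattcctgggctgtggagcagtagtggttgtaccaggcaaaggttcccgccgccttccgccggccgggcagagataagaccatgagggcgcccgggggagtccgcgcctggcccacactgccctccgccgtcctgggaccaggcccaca
LOC105378605, chr1:3213157-3213456, minus strand, WT peak: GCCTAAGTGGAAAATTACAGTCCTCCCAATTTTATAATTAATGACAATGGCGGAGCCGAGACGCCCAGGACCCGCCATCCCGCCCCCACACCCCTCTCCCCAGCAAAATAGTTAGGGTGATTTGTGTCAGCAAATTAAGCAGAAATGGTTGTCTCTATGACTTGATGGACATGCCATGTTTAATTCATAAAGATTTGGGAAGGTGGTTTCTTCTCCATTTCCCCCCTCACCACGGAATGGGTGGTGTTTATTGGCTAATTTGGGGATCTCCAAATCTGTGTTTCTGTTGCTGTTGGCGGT

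The DNAJC12KO peak at TTLL10 (1179452 to 1179789, fold 3.48, -log10 q 1.25) covered 279 of the 300 bases of the window. Fold is the authors' enrichment of the immunoprecipitated signal over a local background, and q is the peak caller's p-value after correction. The WT list had no peak on that window, but its own TTLL10 peak (1179917 to 1180710, fold 3.82) began 127 bp further into the gene. At LOC124903820 the WT peak (1128188 to 1128466, fold 4.85, -log10 q 2.48) was the third strongest on the arm and covered only the outer 33 bases of the window. The WT peak at LOC105378605 (3212961 to 3213510, fold 3.78) covered all 300 bases and was the only WT peak inside PRDM16. The windows held 70.3%, 58.7% and 47.0% G and C in the order of the sequences above, and 15, 17 and 7 CG dinucleotides, where the median 1p window had 61.0% and 17. The motif GGGCGG, on either strand, occurred in 48.6% of 1p windows. It was found in the LOC105378605 window and not in the other printed windows.

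In bins of 10 Mb, peaks thinned steeply from the telomere inwards in both genotypes. The first 10 Mb held 59 WT peaks, which is 59.6% of those on the arm (interval 49.3 to 69.3%). It held 77 DNAJC12KO peaks, which is 55.8% (interval 47.1 to 64.2%), but only 128 of the arm's 1075 protein-coding genes (11.9%). The next bin, from 10 to 20 Mb, held 14 WT and 22 DNAJC12KO peaks with 138 genes. From 20 to 30 Mb there were 13 in each list with 149 genes, the most genes of any bin. The counts fell further to 5 and 12 from 30 to 40 Mb, 5 and 7 from 40 to 50 Mb, and 1 and 3 from 50 to 60 Mb. The first 5 bins held between 127 and 149 genes each, and the sixth held 72.

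**Figure D1:**
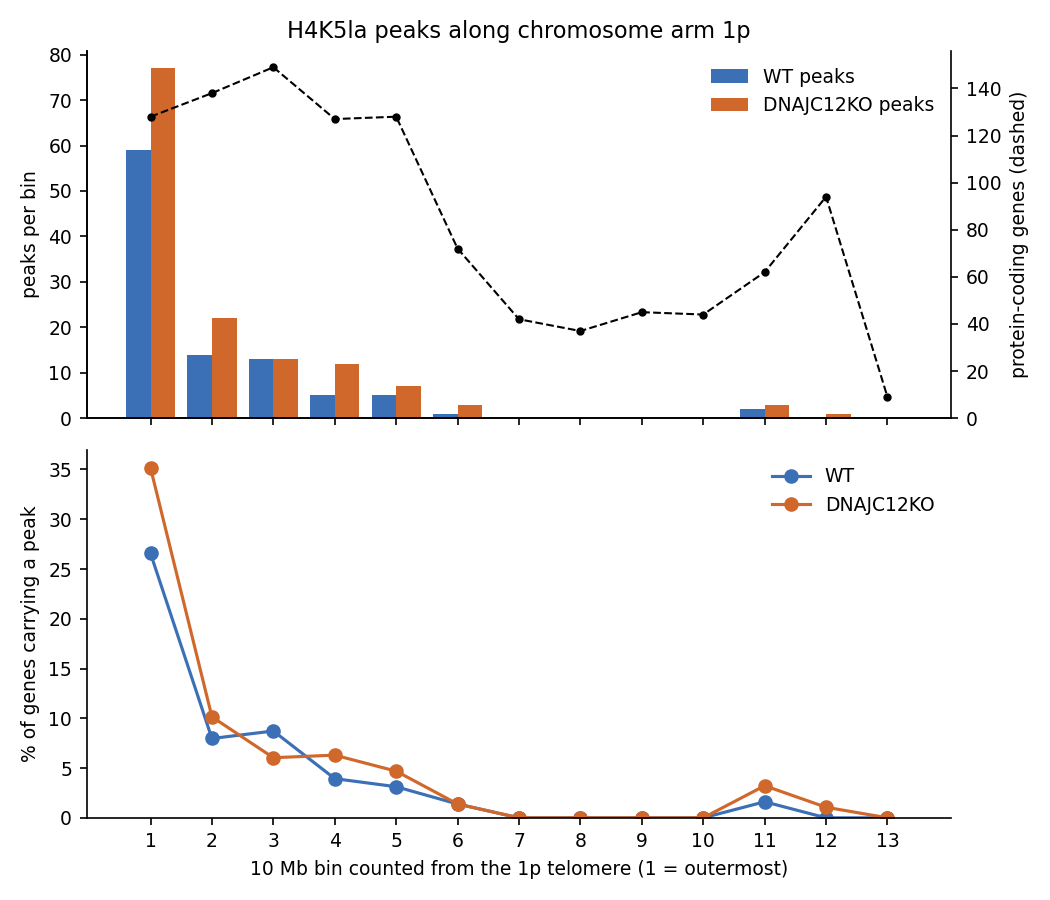
Peaks per 10 Mb bin of 1p (upper panel, bars, left axis) with the number of protein-coding genes per bin (dashed line, right axis), and the percentage of those genes that carry a peak in the gene record or within 3 kb of it (lower panel), for 1 WT and 1 DNAJC12KO list. The outermost bin holds 59 WT and 77 DNAJC12KO peaks, and bins 7 to 10 hold none.

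Per protein-coding gene, the outer 10 Mb had 0.461 WT peaks and 0.602 DNAJC12KO peaks, and the rest of the arm had 0.0422 and 0.0644. That is 10.9 times as many WT peaks per gene (interval 7.18 to 16.7) and 9.34 times as many DNAJC12KO peaks (interval 6.59 to 13.3). Where -log10 q had to reach 2, these values were 4.44 and 17.8, and the first 10 Mb then held 37.5% of 8 WT and 70.6% of 17 DNAJC12KO peaks. Peaks were not independent of each other, because 37.3% of WT and 35.1% of DNAJC12KO peaks of the outer 10 Mb had another peak of their own list within 10 kb, so these intervals are too narrow. The other end of chromosome 1 showed no such excess: the last 10 Mb of annotated sequence held 3 of 111 WT and 7 of 151 DNAJC12KO peaks beyond the 1p boundary, with 89 genes. That is 0.0337 and 0.0787 peaks per gene. The ends of other chromosomes were not counted, so whether the excess is particular to 1p is not known.

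From 60 to 100 Mb neither list had a peak, although this stretch has 168 protein-coding genes. In the WT list the empty stretch ran for 56.2 Mb, from the end of a peak in SLC1A7, a glutamate transporter gene, to CELSR2, and spanned 253 protein-coding genes. In the DNAJC12KO list it ran for 54.0 Mb, from a peak 59.6 kb from USP24 to CELSR2, and spanned 223 genes. Peaks returned in both lists at CELSR2, an atypical cadherin gene of neurons. It held 2 WT peaks (109264940 to 109265541, fold 3.97, and 109266048 to 109266326, fold 3.90) and 1 DNAJC12KO peak (109269996 to 109270400, fold 3.65), which lay 3.67 kb from the nearer WT peak. These were the innermost WT peaks. The DNAJC12KO list had 3 more: in AMPD2, an AMP deaminase gene (fold 3.78), 57.4 kb from EPS8L3 (fold 3.63), and 1.48 kb from KCND3, a voltage-gated potassium channel gene (fold 3.68).

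**Figure D2:**
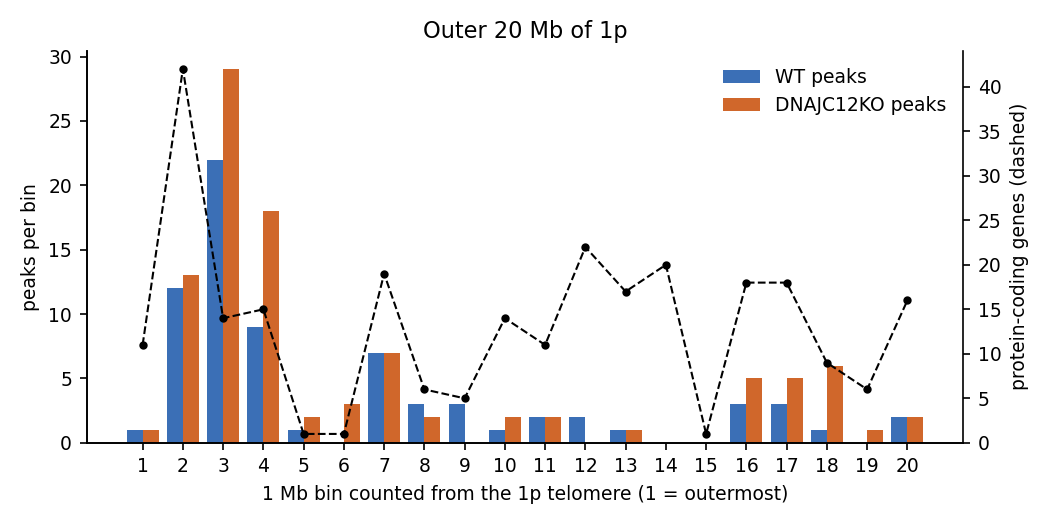
Peaks per 1 Mb bin over the outer 20 Mb of 1p for the WT and DNAJC12KO lists (bars, left axis), with the number of protein-coding genes per bin (dashed line, right axis). The third bin holds 22 WT and 29 DNAJC12KO peaks with 14 genes, whereas the second holds 12 and 13 with 42 genes.

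Within the outer 10 Mb the peaks were densest in 1 stretch, though most lay outside it. The window of 1 Mb with most peaks, 2029537 to 3029536, held 22 WT peaks (22.2% of the arm's) and 29 DNAJC12KO peaks (21.0%). Of its 15 protein-coding genes, 14 carried a peak in at least 1 list. They were GABRD, a GABA receptor subunit gene, PRKCZ, an atypical protein kinase C gene, FAAP20, SKI, a repressor of TGF-beta signalling, MORN1, RER1, the peroxin gene PEX10, PLCH2, PANK4, the Notch target HES5, TNFRSF14, PRXL2B, MMEL1 and TTC34. The 1 Mb bin with most genes in the outer 10 Mb, from 1 to 2 Mb with 42 genes, had 12 WT and 13 DNAJC12KO peaks. From 3 to 4 Mb, with 15 genes, the lists had 9 and 18. Peaks did not fall off evenly from the telomere. The outermost 1 Mb held 1 peak of each list with 11 genes. Between 4 and 5 Mb there were 1 and 2, and between 5 and 6 Mb 0 and 3, with 1 gene per bin. The bin from 9 to 10 Mb held 1 and 2 with 14 genes.

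Genes were called carriers if their record, extended by 3 kb on either side, shared at least 1 bp with a peak. On 1p, 69 of 1075 protein-coding genes carried a WT peak (6.42%, interval 5.03 to 8.05%) and 86 a DNAJC12KO peak (8.00%, interval 6.45 to 9.79%). Over all 19862 protein-coding genes the shares were 6.49% and 8.26%, so the arm as a whole did not stand out from the genome. In the outer 10 Mb, however, 34 of 128 genes (26.6%, interval 19.1 to 35.1%) carried a WT peak and 45 (35.2%, interval 26.9 to 44.1%) a DNAJC12KO peak. On the rest of the arm 35 of 947 (3.70%) and 41 (4.33%) did. The median record was 18.6 kb in the outer 10 Mb and 27.6 kb on the rest of the arm, and the part of gene length was not tested. In all, 119 genes carried a peak of either list, and 71 of them carried 1 peak in total.

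Promoter windows of peak-carrying genes were richer in G and C than others on the arm, with a median of 69.7% over 95 genes with a window against 63.7% over 819 without a peak. In the outer 10 Mb, the medians were 71.5% over 40 genes and 69.3% over 67. The median number of CG dinucleotides there was 31 in both sets. These values describe the promoter, where few of the peaks lay.

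**Figure D3:**
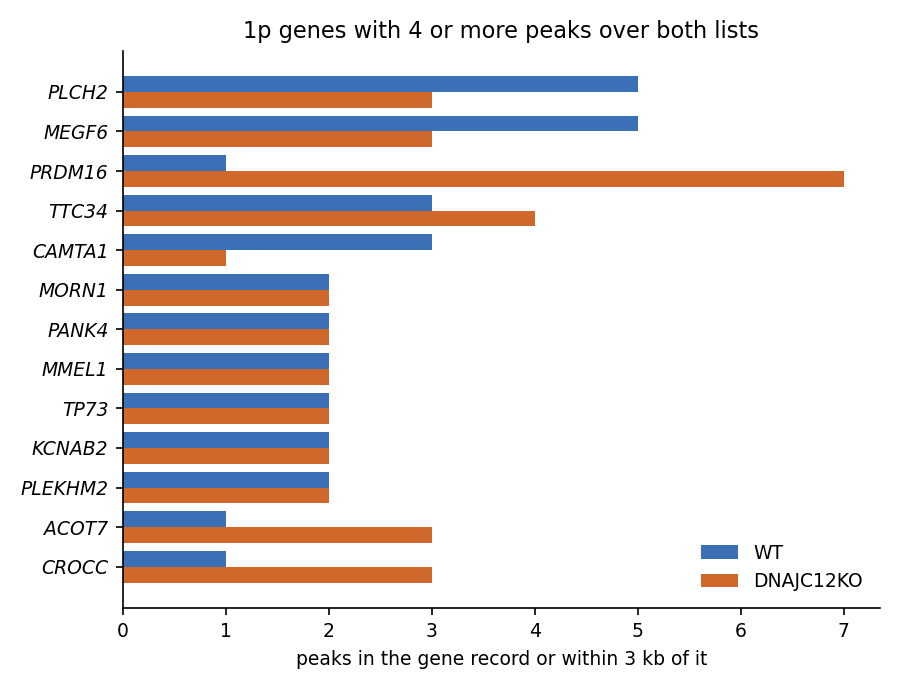
Number of WT and DNAJC12KO peaks in the record or within 3 kb of it for the 13 protein-coding genes of 1p with 4 or more peaks over both lists. PRDM16 has 1 WT and 7 DNAJC12KO peaks, and PLCH2 and MEGF6 have 5 and 3.

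PLCH2, MEGF6 and PRDM16 carried 8 peaks each over both lists, and TTC34 carried 7. PLCH2 (2415943 to 2505532, plus strand) encodes a phospholipase C of the eta class, expressed in neurons. It had 5 WT peaks with folds of 3.75, 4.07, 3.79, 3.92 and 4.15 from its start to its end, the last of them beyond the end of the record. Its 3 DNAJC12KO peaks had folds of 3.61, 4.17 and 3.78, again with the last beyond the record. No WT peak of PLCH2 overlapped a DNAJC12KO peak, and the closest pair, just past its end and shared with the neighbouring gene PANK4, was 96 bp apart (2506128 to 2506943 in the WT list, 2507040 to 2507562 in the DNAJC12KO list).

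MEGF6 (3487951 to 3624786, minus strand) encodes a protein with multiple EGF-like domains. Of its 5 WT peaks, 3 lay together towards the gene's 3′ end, between 3496781 and 3501455, with folds of 3.99, 3.61 and 4.17. A DNAJC12KO peak (3498603 to 3499302, fold 3.66) fell between the first and second of these without touching either, 0.478 kb from the nearer. The remaining WT peaks of MEGF6 had folds of 3.71 and 3.74, and the remaining DNAJC12KO peaks 3.64 and 4.36.

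PRDM16 (3069203 to 3438621) encodes a zinc finger transcription regulator of brown fat and neural stem cells. It carried 7 DNAJC12KO peaks and 1 WT peak. The DNAJC12KO peaks were spread along the gene, with folds of 3.83, 3.97, 3.84, 3.61, 3.61, 5.14 and 3.49 in order of position. The sixth (3377858 to 3378164, -log10 q 3.18) was the strongest DNAJC12KO peak on the arm. The WT peak lay 4.07 kb from the second DNAJC12KO peak, and the strongest peak had no WT peak within 100 kb, at a distance of 104.5 kb. Of the 7 peaks, 2 also lie in LOC124903828, a gene within the PRDM16 record. The length of the record, 369 kb, is the second largest among the 13 genes with 4 or more peaks.

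TTC34 (2636986 to 2801693, minus strand), a gene for a tetratricopeptide repeat protein, held 2 of the 6 places on the arm where the lists overlapped. Its WT peaks had folds of 3.90, 3.01 and 3.55. Its DNAJC12KO peaks had folds of 3.54, 3.37 and 3.24 inside the record and 3.82 just beyond it. The -log10 q of the 3 DNAJC12KO peaks inside the record (2.62, 2.18 and 2.49) was high for their fold. Those with 2.62 and 2.49 were among the 8 strongest DNAJC12KO peaks of the arm, and the others of these 8 had folds of 4.30 to 5.14. The reason was not tested, and whether reads from TTC34 map to 1 place only was not examined.

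The next genes by number of peaks carried 4 each. PLEKHM2, a lysosome positioning gene, had 2 peaks in each list, among them the strongest WT peak of the arm (15716566 to 15716867, fold 5.66, -log10 q 3.62). The nearest DNAJC12KO peak lay 8.56 kb away. CAMTA1 had 3 WT peaks (folds 3.51, 3.91 and 4.86) and 1 DNAJC12KO peak (fold 3.77), at least 123.4 kb apart in a record of 984 kb. ACOT7, an acyl-CoA thioesterase gene of neurons, had 1 WT peak (fold 4.17) and 3 DNAJC12KO peaks (folds 4.69, 3.79 and 3.95). MMEL1, a membrane metalloendopeptidase gene, had 2 WT peaks (folds 3.93 and 3.40) and 2 DNAJC12KO peaks (folds 4.34 and 4.44), the former shared with its neighbour PRXL2B. MORN1, PANK4, TP73 and KCNAB2 also had 2 in each list, and CROCC, the rootletin gene, had 1 WT and 3 DNAJC12KO peaks. CROCC has near-identical pseudogene copies on the same arm, 1 of which, CROCCP2, carried the third strongest DNAJC12KO peak (fold 4.80). Reads could be split between such copies, so their peaks are uncertain.

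The 8 strongest WT peaks included, after those in PLEKHM2 and CAMTA1 and at LOC124903820, a peak in MIR200BHG (1169523 to 1170147, fold 4.87), the host gene of microRNAs that restrain the mesenchymal state. A second WT peak in MIR200BHG had a fold of 3.79, and the DNAJC12KO list had none in it, with its nearest peak 9.30 kb from the stronger WT peak. The others were a peak 9.46 kb from UBR4 (fold 4.79), 1 in the Src family kinase gene FGR (fold 4.69), 1 in DISP3 (fold 4.51) and the second in PLEKHM2 (fold 4.50). Among the 8 strongest DNAJC12KO peaks were also those in ACOT7, in LRRC47 (fold 4.47), in the non-coding gene LOC105378646 (fold 4.53) and in CROCC (fold 4.30). Of these 16 peaks, 2 overlapped a peak of the other list: the second in PLEKHM2 and the widest in TTC34.

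**Figure D4:**
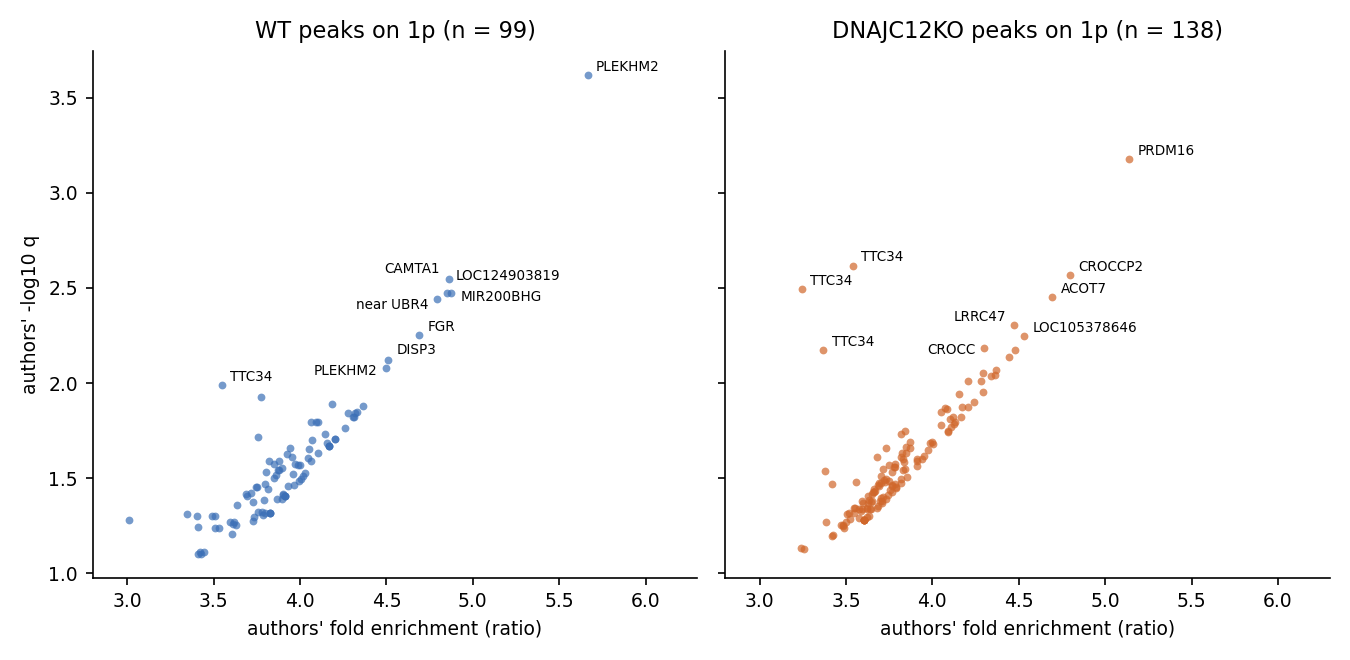
Fold enrichment (x axis, ratio) and -log10 q (y axis) of each 1p peak as the authors' lists give them, for WT (left) and DNAJC12KO (right), with the 9 strongest peaks of each list labelled by the gene they lie in or nearest to. Most peaks lie close to a line, with -log10 q rising with fold, and the labelled TTC34 peaks lie above it.

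Most peaks on 1p were short and weak. Median widths were 468 bp (WT) and 425.5 bp (DNAJC12KO), and 20 WT peaks (20.2%) had the shortest width of that list, 279 bp, while 23 DNAJC12KO peaks (16.7%) had that of theirs, 293 bp. Only 3 peaks in each list were wider than 1 kb, the widest being the TTC34 peak of 1909 bp. Median folds were 3.90 (WT) and 3.74 (DNAJC12KO), against 3.82 and 3.69 on other chromosomes. It was lower on the rest of chromosome 1, at 3.56 and 3.51. At or above a -log10 q of 2 there were 8 from WT, which is 8.08% (interval 3.55 to 15.3%), and 17 from DNAJC12KO, which is 12.3% (interval 7.34 to 19.0%). On other chromosomes the shares were 10.8% and 9.82%, and on the rest of chromosome 1 they were 6.31% and 10.6%. At or above a fold of 4 there were 35 (35.4%) and 32 (23.2%), beside 29.2% and 17.5% on other chromosomes and 7.21% and 9.27% on the rest of chromosome 1. Copy number of these parts of the genome was not examined, so its part in such differences was not tested.

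The 138 DNAJC12KO peaks were 1.39 times the 99 WT peaks, and the ratio was 1.36 on the rest of chromosome 1 and 1.42 on other chromosomes. The arm held 5.11% of the WT list (interval 4.17 to 6.19%) and 5.03% of the DNAJC12KO list (interval 4.24 to 5.92%) on placed chromosomes, with 5.41% of the protein-coding genes. Counting only folds of 4 and above turned the ratio to 0.914, and shortening the longer list to the length of the other gave 1.05. Counting only a -log10 q of 2 and above gave 2.13.

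Peaks of both lists coincided at 6 places. They involved 6.06% of the WT peaks on the arm (interval 2.26 to 12.7%) and 4.35% of those from DNAJC12KO cells (interval 1.61 to 9.22%), where the shares over all placed chromosomes were 8.88% and 6.31%. The rest of chromosome 1 had 16.2% (interval 9.90 to 24.4%) and 11.9% (interval 7.22 to 18.2%). The fullest overlaps were in PLEKHM2, where the WT peak (15733456 to 15733977, fold 4.50) lay wholly inside the DNAJC12KO peak (15733398 to 15734232, fold 4.12), and in TTC34, where the WT peak (2655675 to 2656285, fold 3.55) lay wholly inside another (2655553 to 2656331, fold 3.37). In TNFRSF14, a TNF receptor superfamily gene, the overlap was 453 bp (WT fold 4.00, DNAJC12KO fold 3.94). The remaining overlaps were shorter, with 116 bp at the other TTC34 place (folds 3.01 and 3.54), 97 bp in KCNAB2, a potassium channel beta subunit gene (folds 4.20 and 3.82), and 66 bp at a place 9.14 kb outside TTC34 (folds 3.49 and 3.61). All but the PLEKHM2 place lay in the outer 10 Mb. Read mapping was not examined for the places in and near TTC34, as said above. The PLEKHM2 place is near the 3′ end of that gene. The centre of its WT peak lay 2.54 kb upstream of the start of the neighbouring gene SLC25A34.

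**Figure D5:**
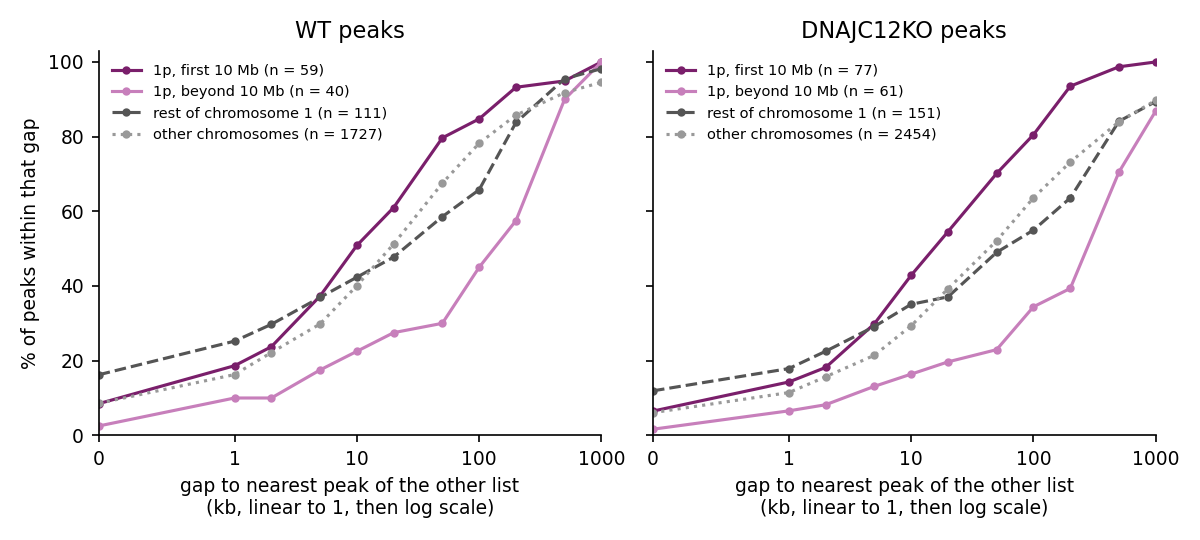
Percentage of WT (left) and DNAJC12KO peaks (right) whose nearest peak of the other list lies within the gap on the x axis (kb, linear to 1 and then on a log scale), for 4 sets of peaks. Within 10 kb, 50.8% of WT and 42.9% of DNAJC12KO peaks of the outer 10 Mb have a neighbour, and 22.5% and 16.4% of those on the rest of the arm do.

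Within 10 kb of a DNAJC12KO peak lay 39 WT peaks, or 39.4% (interval 29.7 to 49.7%). Conversely, 43 DNAJC12KO peaks had a WT peak as near, or 31.2% (interval 23.6 to 39.6%). On other chromosomes the shares were 40.1% and 29.3%. Peaks of both lists were found at 36 genes of 1p, 3.35% of its protein-coding genes, beside 2.93% over the genome. The 36 made up 52.2% of the genes with a WT peak (interval 39.8 to 64.4%) and 41.9% of those with a DNAJC12KO peak (interval 31.3 to 53.0%). Off the arm, shared genes made up 44.7% and 35.1% of the 2 lists' genes. Of the 36, 5 had overlapping peaks, with 1 pair counted for both PLEKHM2 and its neighbour SLC25A34. In the other 31 the peaks of the lists did not overlap, but some nearly met. The gap was 0.069 kb in CROCC, 0.096 kb at PLCH2 and PANK4, and 0.127 kb in TTLL10. The same count was not made off the arm. The median gap between the nearest peaks of the lists was 3.56 kb. In the outer 10 Mb, 25 genes were shared, 73.5% of the WT genes (interval 55.6 to 87.1%) and 55.6% of the DNAJC12KO genes (interval 40.0 to 70.4%). On the rest of the arm 11 were shared, 31.4% (interval 16.9 to 49.3%) and 26.8% (interval 14.2 to 42.9%). Where peaks are dense, both lists are more likely to mark a gene whatever the relation between them, and this was not tested.

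In the WT list alone were 33 genes, led by FGR, DISP3 and the bone morphogenetic protein gene BMP8A (fold 4.37). In the DNAJC12KO list alone were 50, led by LRRC47, the ubiquitin ligase gene MIB2 of the Notch pathway (fold 4.48), PRXL2B (fold 4.34) and H6PD (fold 4.20). ARHGEF10L, a guanine nucleotide exchange factor gene, had 3 DNAJC12KO peaks and no WT peak. TNFRSF4, SLC45A1 and CASZ1 had 2 WT peaks each and no DNAJC12KO peak. Over all 19862 protein-coding genes, 1290 carried a WT peak and 1641 a DNAJC12KO peak, but only 582 carried both. Genes with peaks of only WT or only DNAJC12KO were thus common across the genome. None of those named here is shown to be specific to a genotype.

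Peaks lay mostly within gene bodies, and few lay near the 1 start used for each gene. Centres within 3 kb of the start of a protein-coding gene numbered 10 in each list, 10.1% of WT peaks (interval 4.95 to 17.8%) and 7.25% of DNAJC12KO peaks (interval 3.53 to 12.9%). A further 15.2% and 14.5% lay within 3 kb of another end of a gene record, and 59.6% and 58.0% lay elsewhere inside a protein-coding gene. Outside all annotated genes lay 9.09% and 15.2%. Off the arm the same classes held 8.76%, 17.6%, 59.7% and 10.6% of WT peaks and 6.76%, 15.9%, 58.0% and 14.9% of DNAJC12KO peaks. Among peaks inside genes of known strand, the median centre lay 70.2% of the way from start to end over 68 WT peaks and 66.2% over 82 DNAJC12KO peaks, against 62.3% and 67.4% off the arm. Starts and strand were known for 914 of the 1075 genes, so a peak at the start of any other gene was counted at another end. The DNAJC12KO peak of CHD5, close to 1 end of a record without strand, was counted in this way. Only 1 start was kept per gene, and it can lie well inside the record, as in PLCH2. A peak at another start of a gene, as in TTLL10, was not counted at a start. The share at starts is thus a lower limit for all annotated starts.

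Of 22 genes studied as 1p36 neuroblastoma and tumour suppressor candidates, 9 carried a WT peak, 7 a DNAJC12KO peak and 5 both. These shares, 40.9% and 31.8%, stood beside 6.42% and 8.00% of all protein-coding genes of the arm, but the list has 11 genes in the outer 10 Mb and a median record of 84.9 kb against 25.9 kb, and the part of position and length was not tested. This list and those below were chosen with earlier results of these data known, so their shares are descriptive only. The lists share members, such as PRDM16, CHD5 and CAMTA1, and this list includes MIR34A, a microRNA gene. The 5 with peaks of both lists were PRDM16, CAMTA1, TP73, the p53 homologue (best folds 3.94 WT and 4.13 DNAJC12KO), CHD5 (3.88 and 3.87) and the death receptor gene TNFRSF25 (3.87 and 3.71). CHD5 had its WT peak at 6160799 to 6161170 and its DNAJC12KO peak at 6178631 to 6178923, 17.5 kb apart. Only WT peaks were listed at CASZ1 (best fold 4.05), the nuclear receptor corepressor gene RERE (4.05), the sugar transporter gene SLC45A1 (3.96) and the ephrin receptor gene EPHA2 (4.31). The EPHA2 peak lay 2.9 kb outside the record. Only DNAJC12KO peaks were listed at PAX7, a neural crest and muscle factor gene (3.70), and EPHB2 (3.55). The remaining 11, among them ARID1A, KIF1B and RUNX3, had none.

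Of 35 neuronal and synaptic genes, 6 carried a WT peak (17.1%) and 8 a DNAJC12KO peak (22.9%), again beside 6.42% and 8.00% on the whole arm, and the median record of this list was 64.6 kb. The 4 with peaks in both lists were AGRN, the agrin gene (best folds 4.15 and 3.75), KCNAB2, ACOT7 and CAMTA1. The ephrin receptor gene EPHA8 (3.85) was among those with a WT peak alone. GABRD (3.77), EPHB2, KCND3 and the delta opioid receptor gene OPRD1 (3.68) had a DNAJC12KO peak alone. Of 29 genes of WNT, Notch, TNF receptor and kinase signalling, 6 (20.7%) and 7 (24.1%) carried a peak and 4 did so in both lists. These 4 were the WNT transducer gene DVL1 (4.06 and 4.11), PRKCZ (4.11 and 3.76), TNFRSF14 and TNFRSF25. The DNAJC12KO peak counted for DVL1 lay in the neighbouring gene TAS1R3, outside the DVL1 record but within 3 kb of it. Of this list, 14 genes lie in the outer 10 Mb, and its median record was 23.1 kb. The part of position and length in these shares was not tested either.

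Of 25 chromatin regulators, with a median record of 59.0 kb, 12.0% carried a WT peak and 12.0% a DNAJC12KO peak, beside 6.42% and 8.00% of all protein-coding genes of the arm. They were 3 with a WT peak (PRDM16, CHD5 and RERE) and 3 with a DNAJC12KO peak (PRDM16, CHD5 and the Polycomb gene PHC2, fold 4.29). Of 18 extracellular matrix genes, AGRN and HSPG2, the perlecan gene (4.28 and 4.13), carried peaks in both lists (11.1% in each) and the other 16 in neither. Of 15 genes of glycolysis, sugar and lactate metabolism, H6PD, a hexose-6-phosphate dehydrogenase gene, carried a DNAJC12KO peak (6.67%) and none carried a WT peak. ENO1, the enolase gene, and SLC16A1, a lactate transporter gene, were among those without. Of 24 housekeeping and ribosomal protein genes, only CAPZB, an actin capping protein gene, carried peaks, with folds of 3.91 (WT) and 3.61 (DNAJC12KO), which makes 4.17% for each genotype.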

How the data were processed

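SH-SY5Y chromatin was immunoprecipitated with an antibody against H4K5la, with spike-in chromatin added per the labels' protocols, giving 1 library and 1 input per genotype. The submitters' processing notes name MACS2 2.2.6 and build hg38. For the aligner, read filters, calling options, the control used in calling and any scaling by the spike-in, the answer is not given in the sources used here. The authors deposited 1 broad peak list per genotype. For each peak it holds a score (not used), a fold enrichment (a linear ratio) and the -log10 of p and q, all of them the authors' values. Peaks were ranked by -log10 q, each list on its own. The lists reach down to a -log10 q of 1.03 (WT) and 1.01 (DNAJC12KO), so a place without a peak is one that did not pass. Depth is unknown. No column of another sample was present (0 columns).

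Gene records are those of RefSeq for GRCh38.p14: 58957 on placed chromosomes were used and 835 on other sequences were left out. Strand and starts came from the RefSeq promoter windows, with 1 start kept per gene. Coordinates are 1-based. Software was Python 3.11.15 (pandas 2.3.3, numpy 2.4.6, scipy 1.17.1), with figures drawn by matplotlib 3.10.9. The overlap code was tested on simulated data and found 200 of 200 planted overlaps. Genes named are the 8 with most peaks, those at the 8 strongest peaks of each list, all overlapping places, the densest 1 Mb window and up to 6 carriers per gene list by best rank. The following were picked with their values in view: other genes with 4 peaks, genes in 1 list alone, genes at the inner edge, the second MIR200BHG peak, TTLL10 and list members without a peak. The members and the 7 gene lists were chosen with earlier results of these data known. Alternatives were other thresholds, list lengths, windows and overlap rules.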

Additional observations from a re-analysis of the deposited data

How the results depend on the processing

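No paired analysis was possible because each group has 1 library, and for the same reason no library could be left out. Over 24 results, 29 of 76 alternatives stayed within the interval of the main value, or within 1.5 times it for a count, 46 did not, and 1 reversed. The one that reversed was the ratio of DNAJC12KO to WT peaks, 0.914 at a fold of at least 4; it was 2.13 at a -log10 q of at least 2 and 1.05 with lists of equal length. At a -log10 q of at least 2, the WT and DNAJC12KO lists had 8 and 17 peaks on 1p (3.96% and 6.20% of the lists), 37.5% and 70.6% of them in the first 10 Mb, 4.44 and 17.8 times the peaks per gene of the rest of the arm, 5 and 10 genes with a peak, and 0% and 0% overlapping peaks. At a fold of at least 4 there were 35 and 32 peaks (6.39% and 6.74%) and 30 and 26 genes. The first 5 Mb held 45.5% and 45.7% of the peaks and the first 30 Mb held 86.9% and 81.2%. With a window of 1 kb in place of 3 kb, 3.03% and 1.45% of peaks lay at a start, 7.07% and 5.07% at another end and 72.7% and 70.3% elsewhere inside a coding gene; with 10 kb the values were 33.3% and 28.3%, 25.3% and 23.2%, and 35.4% and 32.6%. Counting only 3 kb around gene ends left 29 and 36 genes, 9 shared, and 6 and 8 members of any gene list, where the main counts were 69 and 86, 36, and 21 and 23. Peaks within 1 kb of the other list made up 15.2% and 10.9%, and within 10 kb 39.4% and 31.2%. The median DNAJC12KO fold beyond the first 10 Mb was 3.69. The unknown depth limits every count, since a deeper library gives more peaks at the same threshold.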

Other observations

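Of the 71 microRNA hairpins examined on 1p, none was overlapped by a peak of either list. Among those examined, MIR429 (435 bp), MIR200B (2061 bp) and MIR6729 (112 bp) lay within 3 kb of a WT peak, and MIR6727 (54 bp) of a DNAJC12KO peak. MIR429 and MIR200B belong to the miR-200 family, and their nearest DNAJC12KO peaks were 10364 and 12253 bp away.

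Several 1p peaks carried identical values. In the DNAJC12KO list 6 peaks had a fold of 3.61 and a -log10 q of 1.28, and in the WT list 3 had a fold of 3.82 and a -log10 q of 1.32. The shortest peaks made up 20.2% of WT peaks on the arm and 12.3% off it, and 16.7% and 12.6% of DNAJC12KO peaks.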
